A study of Danio rerio with 3 samples.

Results

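The comparison concerned 2 neighbouring stretches of the embryonic zebrafish heart, the ventricle and the atrioventricular (AV) canal, in 3 wild-type TL hearts dissected at 48 hours post fertilization (2 dpf). All 3 hearts were untreated and carried no labelled allele or transgene. Each heart was cut into 10 µm cryosections from pole to pole, and the RNA of every section was counted separately by tomo-seq, in which a barcode keeps the section of origin. Of 117 tissue sections in all, 45 entered the comparison: 21 ventricular sections (7, 9 and 5 in hearts 1, 2 and 3) and 24 AV canal sections (8, 10 and 6). The members were chosen by position. In heart 1 the ventricle was sections 12 to 18 and the AV canal sections 19 to 26. In heart 2 these were sections 88 to 80 and 79 to 70, and in heart 3 sections 34 to 30 and 29 to 24, since these hearts were numbered from the inflow end. Reads were summed per window and heart, which gave 6 libraries, and the heart was the replicate (n = 3), because sections of 1 heart come from 1 animal.

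The ventricle is the muscular pumping chamber, and its wall of cardiomyocytes carries the ventricular myosin heavy chain vmhc. The AV canal joins it to the atrium. Its muscle conducts slowly and expresses bmp4, a secreted growth factor of the BMP family, and tbx2b, a T-box repressor that holds back the chamber muscle programme, while its endocardium forms the cushions from which the valves develop. A section also holds endocardium, blood and other cells, so that fewer cells of a type and less RNA per cell cannot be told apart.

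Depth differed between the windows, most of all in heart 3. The ventricle gave 1384396, 423169 and 224515 gene reads in hearts 1, 2 and 3, and the AV canal gave 1962716, 305324 and 1633009. In heart 3 a single ventricular section held 115125 of the reads, and 3 of its 5 ventricular sections had under 10000. Of 4496 genes tested, the ventricle had 0 reads for 7.21%, 19.97% and 50.1% in hearts 1, 2 and 3, and the AV canal for 3.67%, 26.1% and 8.74%. One row, ENSDARG00000080337, which has no symbol in the name table, took 38.3%, 34.6% and 12.7% of the ventricular reads and 43.3%, 31.01% and 22.6% of those of the AV canal. Gene reads per spike-in read were 118, 4.30 and 59.3 in the ventricle and 146, 3.52 and 510 in the AV canal. Levels below are reads per 10000 gene reads of a window. They set the hearts on 1 scale, but compare no gene with another, since a read may be a PCR copy and the sources do not say whether molecular identifiers were used.

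The ventricular marker vmhc followed the labels in hearts 1 and 2 and went against them in heart 3. Its level was 73.3, 49.8 and 66.8 in the ventricle and 54.5, 13.7 and 110.3 in the AV canal (hearts 1, 2 and 3). Hence vmhc was higher in the ventricle of hearts 1 and 2 only. MYH7, the row of the other ventricular myosin heavy chain, gave 64.1, 31.7 and 31.04 in the ventricle and 35.98, 5.11 and 50.1 in the AV canal, with the same split between hearts. Both myosins may share reads and are uncertain to that extent. The atrial myosin myh6 was nearly absent from the ventricle, with 2, 0 and 29 reads there and 435, 814 and 371 in the AV canal, and the windows did not overlap in level (0.0144, 0 and 1.29 in the ventricle, 2.22, 26.7 and 2.27 in the AV canal). Since vmhc and myh6 placed the windows of hearts 2 and 3, and helped to place those of heart 1, these values describe the windows and were given no test.

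Within the AV canal window the 2 myosins were not mixed evenly. In heart 1, myh6 had no read in sections 19 to 22, where vmhc stood at 76.03, 62.4, 90.2 and 37.4, and appeared in section 23 (1.41) to reach 13.2 in section 26. In heart 3, sections 29, 28 and 27 had vmhc at 148.7, 142.2 and 161.7 with no myh6 read, and sections 26 and 25 held all 371 reads of it in the window. In heart 2, sections 79 to 77 had no myh6 and vmhc between 9.68 and 28.2. These were shallow, with 7968, 5166 and 10303 gene reads and 19, 5 and 29 reads of vmhc, so the lack of myh6 there says little. Thus 4, 3 and 3 sections on the ventricular side of the canal window carried ventricular without atrial myosin, although in heart 3 the neighbouring ventricular section 30 held 29 myh6 reads, and 4, 7 and 3 sections remained on the atrial side.

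**Figure D1:**
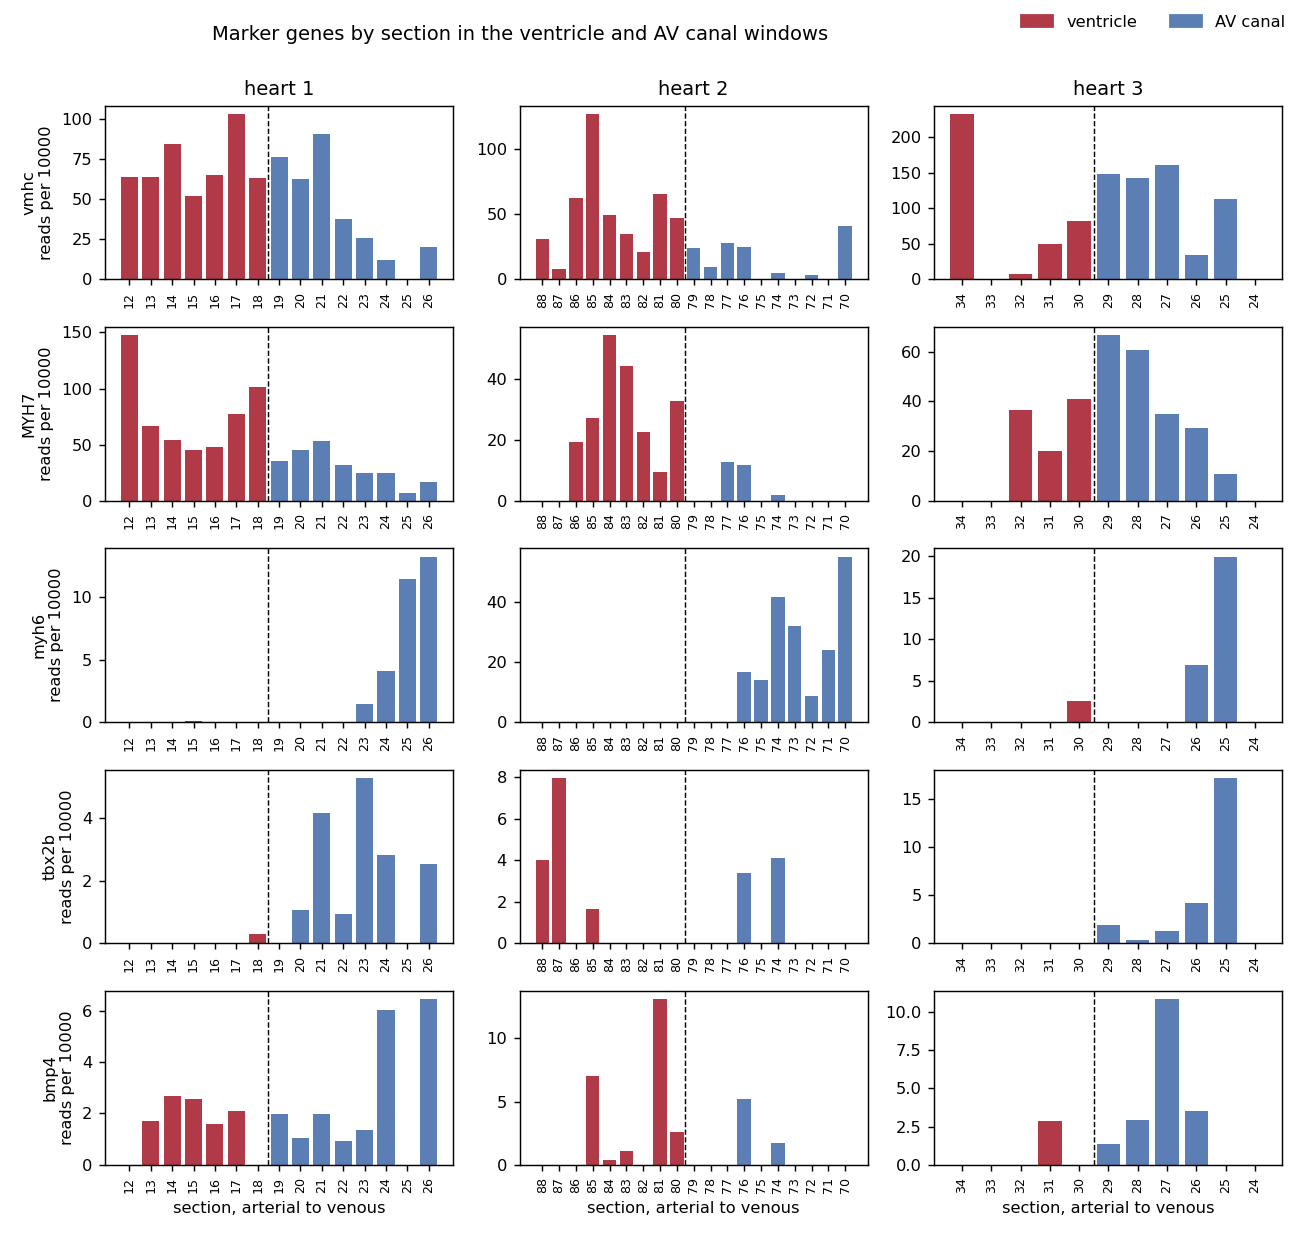
Reads per 10000 gene reads of vmhc, MYH7, myh6, tbx2b and bmp4 (rows) in every section of hearts 1, 2 and 3 (columns), arterial to venous, with ventricular sections in red to the left of the dashed border and AV canal sections in blue. vmhc runs across the border at 148.7 in section 29 of heart 3, and the first 4, 3 and 3 sections of the AV canal window hold no myh6, although section 30 of heart 3, in the ventricle, holds 29 reads of it; each panel has its own linear scale.

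Both markers of the canal stood higher in its window than in the ventricle window in 3 of 3 hearts. For tbx2b there were 4, 22 and 0 reads in the ventricle and 426, 75 and 336 in the AV canal. Its level was 0.0289, 0.520 and 0 in the ventricle and 2.17, 2.46 and 2.06 in the AV canal, which leaves a gap between the windows. tbx2b was read in 4 of 21 ventricular sections, 3 of them in heart 2, and in 13 of 24 AV canal sections. The atrium, taken for context only, had tbx2b at 2.35, 2.06 and 2.44, close to the AV canal. bmp4 differed less: 1.83, 2.01 and 1.25 in the ventricle and 2.68, 2.33 and 2.77 in the AV canal, without overlap, so that the AV canal was 1.46, 1.16 and 2.22 times the ventricle in hearts 1, 2 and 3. The atrium held bmp4 at 1.34, 8.58 and 6.75, above the canal in hearts 2 and 3. In the study the atrium overlaps the sinoatrial region, where tbx2b and bmp4 are also expressed. Atrial levels here and below may therefore include sinoatrial tissue and cannot be read as those of atrial muscle alone. The share of that tissue was not tested. bmp4 was read in 11 of 21 ventricular sections and 13 of 24 AV canal sections. In heart 2 it was read in 5 of 9 ventricular sections, while in the AV canal both genes were read only in sections 76 and 74, 2 of 10. In heart 1 both genes were among those by which the study placed the canal, and for that reason no test is given for them, nor for myl7, nppa and has2 below.

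Across all genes, few differences passed the test over the 3 hearts. The quasi-likelihood count model with the heart as a block called 0 of 4496 genes higher in the ventricle (0%) and 2 higher in the AV canal (0.0445%) at an adjusted p under 0.05. One of the 2 was myh6, which placed the windows, and the other was TADA3. The model let no gene's variance fall below that of a dispersion shared by all genes (0.41). Small differences therefore could not pass, however alike the hearts were. At an unadjusted p under 0.05, 32 genes (0.712%) were higher in the ventricle and 159 (3.54%) in the AV canal. Both counts include genes that met the filter of 3 libraries through 1 window only and so had to differ. Among these are the 5 ventricle genes and smtnl1 described below. The limma fit on log2(CPM + 1) called 0 and 5 genes, and voom 0 and 1, where the 1 was the row ENSDARG00000080337 (log2 fold change -0.32) and neither myh6 nor TADA3. The median log2 fold change over all genes tested, ventricle over AV canal, was -0.44, and it moved to -0.24 when only total reads were used for scaling and to -1.08 with spike-ins. Without heart 3 it was -0.01.

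**Figure D2:**
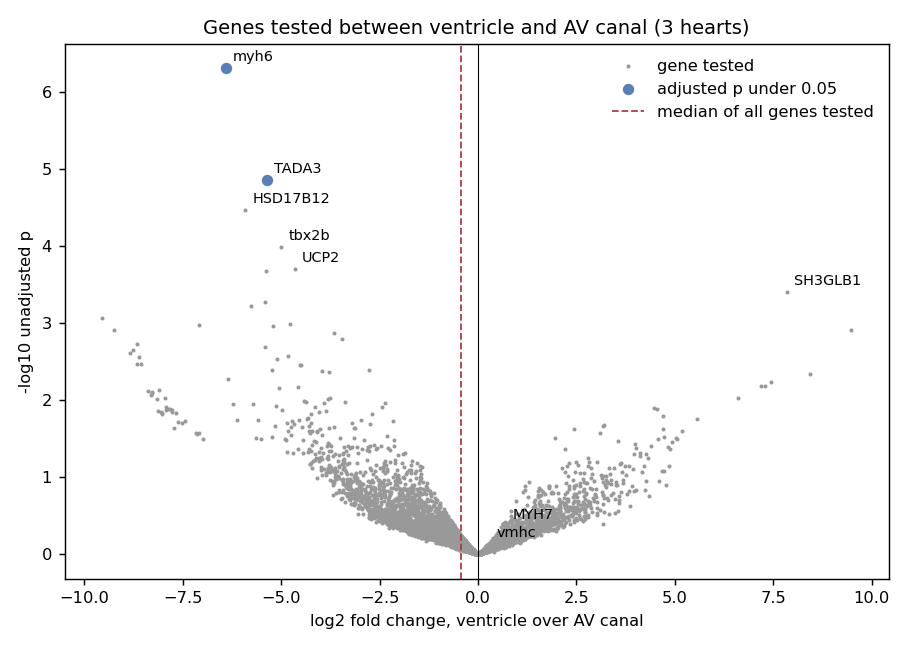
Each point is 1 of 4496 genes tested, with its log2 fold change (ventricle over AV canal, fitted over 3 hearts) across and -log10 of the unadjusted p upward. Blue points passed an adjusted p of 0.05 and both lie on the AV canal side, and the dashed line is the median of all genes (-0.44); myh6, vmhc and tbx2b helped to place the windows, so their height is no test.

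The split between the directions depended on where the border was drawn. When the canal sections on the ventricular side of the first one with myh6 were counted as ventricle, a choice made after seeing the data, 7 genes were called higher in the ventricle and 2 in the AV canal (myh6, which drew this border, and TADA3), and the counts at an unadjusted p under 0.05 were 196 and 40 of 3777 genes. The ventricle was then the deeper window, with 2722542, 446606 and 1334693 reads against 624570, 281887 and 522831 in the AV canal, and the median of all genes was 0.45. The part of depth in this turn was not tested. By construction this border also moves canal sections with vmhc and no myh6 into the ventricle, where vmhc then stood at 72.5, 48.4 and 131.8, against 17.4, 12.95 and 36.68 in the AV canal.

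TADA3 (ENSDARG00000058220), whose human match is a subunit of histone acetyltransferase complexes, was the single gene past the threshold that had no part in placing the windows. The ventricles of hearts 1, 2 and 3 held 490, 0 and 0 reads of it and the AV canals 1245, 330 and 153. In level this was 3.54, 0 and 0 in the ventricle and 6.34, 10.8 and 0.937 in the AV canal. The AV canal was higher in each heart, but the ventricle of heart 1 lay above the AV canal of heart 3, so the windows overlapped. The atrium, taken for context only, held TADA3 at 0.650, 4.03 and 6.73, above the AV canal in heart 3 and below it in hearts 1 and 2. The log2 fold change was -5.35 (SE 0.88, adjusted p = 0.0309, n = 3, quasi-likelihood model). Its reads lay in few sections: 2 of 21 in the ventricle, where 486 of the 490 fell in a single one, and 9 of 24 in the AV canal, where the fullest held 602. The call was lost when any heart was left out, with adjusted p = 0.263, 1.0 and 0.412 without hearts 1, 2 and 3, and when the border sections were omitted (adjusted p = 0.394), while the AV canal stayed higher under all 17 alternatives.

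The genes next in order on the AV canal side did not pass, and their values are given as such. HSD17B12, an enzyme of fatty acid elongation in human cells, had 0, 11 and 0 reads in the ventricle and 68, 165 and 379 in the AV canal (log2 fold change -5.91, SE 1.37, adjusted p = 0.0510, n = 3, quasi-likelihood model). It was read in 2 of 21 ventricular sections and 9 of 24 AV canal sections, 3 in each heart, and the levels of the windows did not overlap. UCP2, an uncoupling protein of the inner mitochondrial membrane, had 198, 0 and 3 reads in the ventricle and 333, 118 and 778 in the AV canal (adjusted p = 0.159). Its levels were almost level in heart 1, at 1.43 in the ventricle and 1.70 in the AV canal, and far apart in heart 3, at 0.134 and 4.76.

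On the ventricle side the 5 genes with the smallest p had nearly all of their reads in few ventricular sections, and none passed. SH3GLB1, a membrane-bending protein with a role in autophagy, had 60, 30 and 158 reads in the ventricle and 1, 0 and 1 in the AV canal (adjusted p = 0.255). Its level was 0.433, 0.709 and 7.04 in the ventricle, and all 158 reads of heart 3 came from a single section. The other 4 had no read in any AV canal section. All 5 met the filter of 3 libraries only through the ventricles and so had to differ, and their values are a description. CU928070.1 had 16, 54 and 75 reads in the ventricle, which makes it at least 92.8-fold higher there than a floor of 3 reads over the 3 AV canal libraries allows. On the same footing zdhhc8a, of the palmitoyltransferase family (19, 10 and 35 reads), was at least 41.0-fold higher, but turned to a log2 fold change of -1.05 when the border of hearts 2 and 3 was moved 1 section into the ventricle. vash2, a vasohibin (20, 10 and 12 reads), was at least 26.9-fold higher, and COQ6, of coenzyme Q synthesis (16, 25 and 8 reads), at least 31.4-fold. These 4 genes were read in 7, 4, 3 and 5 of 21 ventricular sections, and their adjusted p lay between 0.371 and 0.782.

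**Figure D3:**
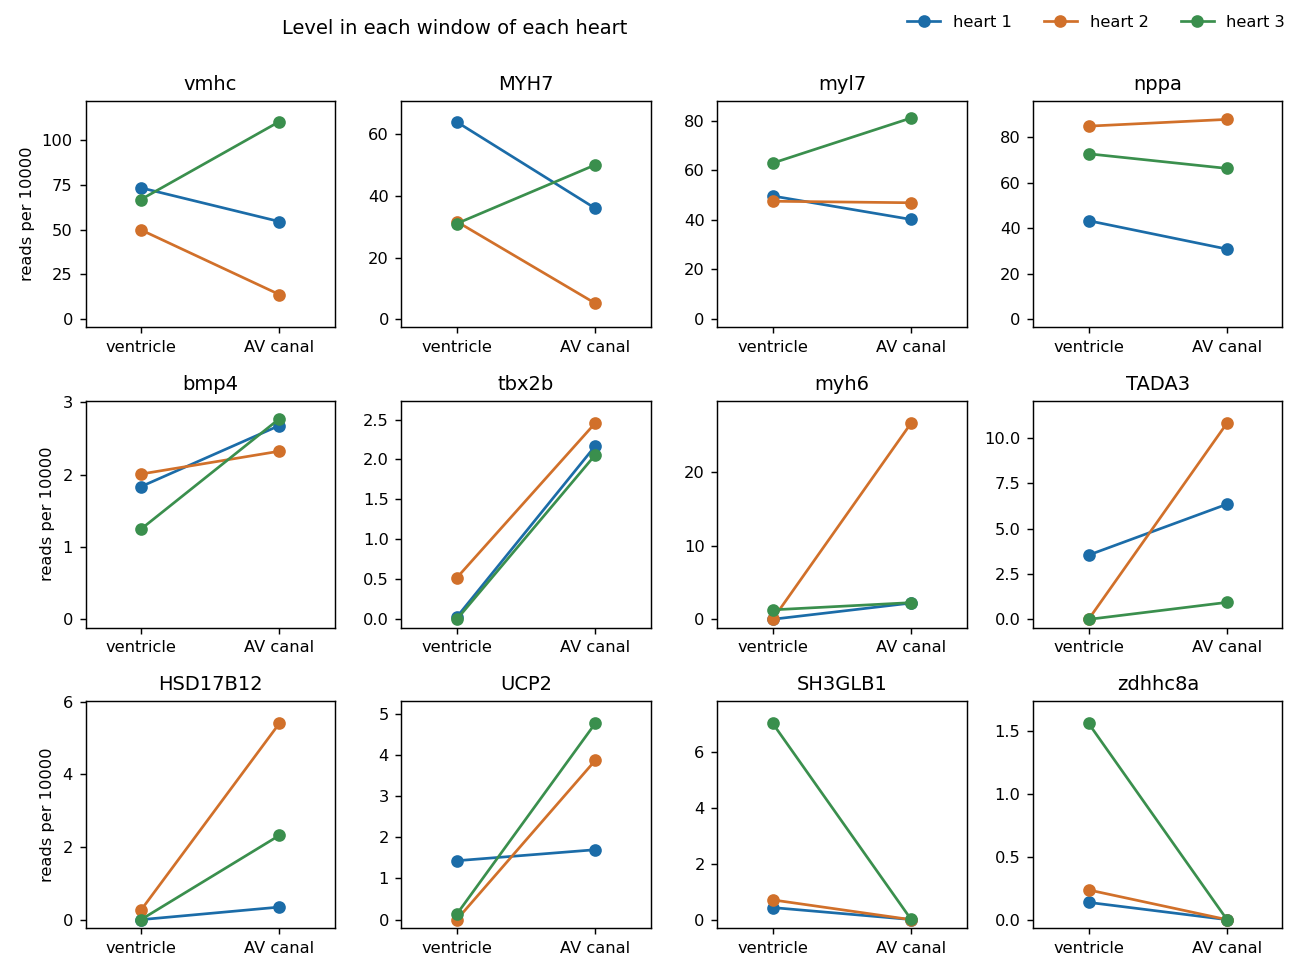
Reads per 10000 gene reads in the ventricle (left) and AV canal (right) of hearts 1, 2 and 3, 1 line per heart and 1 panel per gene, each with its own linear scale from 0. vmhc and MYH7 are higher in the ventricle in hearts 1 and 2 and lower in heart 3, and tbx2b lies between 2.06 and 2.46 in the AV canal, above the ventricle in 3 of 3 hearts.

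Ventricular muscle genes were read in both windows, and none of the 10 tested was called in either direction. Their summed level was 235.9, 219.3 and 219.2 in the ventricle and 158.2, 147.6 and 290.6 in the AV canal, higher in the ventricle in hearts 1 and 2 but not in heart 3. The list's median log2 fold change was -0.25, beside -0.44 over all genes, and 0.65 without heart 3. These values include vmhc and nppa, which had a part in placing the windows. Without them the median of the other 8 genes was -0.475. Their sums were then 119.3, 84.7 and 79.8 in the ventricle and 73.01, 46.2 and 114.0 in the AV canal, with the same split between hearts. nppa, a natriuretic peptide of working chamber muscle, gave 43.2, 84.8 and 72.7 in the ventricle and 30.8, 87.8 and 66.2 in the AV canal, with overlapping windows. Its relative nppb gave 29.98, 17.8 and 11.4 in the ventricle and 16.2, 21.9 and 31.1 in the AV canal. Of the 10 genes, 2 were higher in the ventricle in 3 of 3 hearts, against 7.98% of all genes, and 1 was higher in the AV canal, against 14.1%. Here and below, the 7.98% is a low base for well-read lists. It counts the 50.1% of tested genes at 0 in the ventricle of heart 3, which could not be higher there. The list's genes with 1 direction in 3 hearts are named here after their values were seen. The small heat shock protein gene hspb7 stood at 10.1, 18.3 and 26.2 in the ventricle and 6.08, 8.09 and 15.6 in the AV canal. hey2, a repressor downstream of Notch that marks ventricular muscle, had 71, 25 and 55 reads in the ventricle and 50, 0 and 137 in the AV canal, a level of 0.513, 0.591 and 2.45 against 0.255, 0 and 0.839. FHL2, a LIM domain protein, was the gene higher in the AV canal.

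Genes of the contractile apparatus that both chambers use were read in both windows, with no call. Sarcomere genes summed to 436.7, 384.1 and 405.1 in the ventricle and 324.6, 378.3 and 537.6 in the AV canal. None of 23 tested passed, and their median was -0.36, or -0.376 without myl7, which helped to place the windows of heart 1. The myosin light chain myl7, which is used to mark heart muscle as a whole, gave 49.6, 47.5 and 62.9 in the ventricle and 40.1, 46.9 and 81.03 in the AV canal. The light chain gene cmlc1 gave 103.6, 85.6 and 90.3 in the ventricle and 82.2, 94.7 and 113.6 in the AV canal, tropomyosin tpm4a gave 81.7, 75.6 and 47.1 against 57.5, 72.7 and 84.8, and troponin T (TNNT2) gave 37.4, 24.1 and 50.4 against 32.2, 25.9 and 42.4. In each of these the hearts disagreed in direction and the windows overlapped. The troponin C row TNNC1 of this list, given with the atrial genes below, was higher in the AV canal of each heart.

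None of 10 calcium handling genes tested passed, and their median was -0.63. The sarcoplasmic reticulum pump atp2a2a had 8.29, 2.69 and 5.17 in the ventricle and 3.87, 5.60 and 13.4 in the AV canal. The calsequestrin casq2, which stores calcium in the reticulum, was higher in the ventricle in 3 of 3 hearts by level, at 2.03, 1.80 and 5.17 against 1.16, 1.67 and 3.45, although its windows overlapped (log2 fold change 0.25, SE 0.84). Among ion channel and gap junction genes 7 were tested and 0 passed, and cacna1c, the pore of the L-type calcium channel, stood at 1.64, 0.827 and 0.267 in the ventricle and 2.19, 1.83 and 2.701 in the AV canal.

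Atrial muscle genes other than myh6, which placed the windows, gave no call. Of 5 tested, 3 were higher in the AV canal in 3 of 3 hearts, against 14.1% of all genes, and their median was -1.80, beside -0.44. Their summed level was 1.21, 2.03 and 2.49 in the ventricle and 1.09, 4.06 and 5.66 in the AV canal, so heart 1 went the other way. smtnl1, a smoothelin-like gene of atrial muscle, had 0 reads in all 3 ventricles and 69, 20 and 127 in the AV canal, at least 37.5-fold higher there against a floor of 3 reads over the ventricular libraries (adjusted p = 0.468). These came from 5 of 24 canal sections, and the atrium held smtnl1 at 4.18, 3.80 and 5.23, above the canal's 0.352, 0.655 and 0.778. smtnl1 met the filter of 3 libraries only through the AV canals. It therefore had to differ and to be among the 3 genes counted above, and its values are a description. APCDD1L, a membrane inhibitor of Wnt signalling, gave 0.260, 1.21 and 0 in the ventricle and 0.367, 2.75 and 0.643 in the AV canal. The troponin C row TNNC1 belongs to the sarcomere list, not to the atrial one, and was named after its values were seen. It had 0, 0 and 7 reads in the ventricle and 16, 62 and 373 in the AV canal (adjusted p = 0.371), and atrial levels of 6.25, 4.78 and 22.7.

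Genes of the AV canal and its valves gave no call. Of 17 tested, 0 passed, 5 were higher in the AV canal in 3 of 3 hearts, against 14.1% of all genes, and 1 was higher in the ventricle, against 7.98%. Without the genes that placed the windows, 3 of 14 were higher in the AV canal in 3 of 3 hearts, against 14.1% of all genes, and TBX2 among them had to be (below). The median of the list was -0.87, beside -0.44 for all genes. It was -1.81 without heart 3 and -0.05 with the border at the first section with myh6. These medians include the genes that placed the windows. Without those genes the median was -0.757, and 0.38 with the border at the first section with myh6, beside 0.45 for all genes with that border. The 5 were tbx2b and bmp4, which helped to place the canal of heart 1, and a further T-box row (TBX2), klf2a and hapln1a, named after their values were seen. TBX2 had 13, 0 and 0 reads in the ventricle and 94, 85 and 317 in the AV canal (adjusted p = 0.299). In heart 3, 311 of its 317 canal reads came from section 29, at the ventricular border. The 13 ventricular reads fell under the filter cut, so TBX2 met the filter of 3 libraries only through the AV canals. It therefore had to differ and to be among the 3 of 14 counted above, and the medians above include it. Its values are a description. The flow-induced klf2a had levels of 0.231, 0 and 0 in the ventricle and 0.881, 0.426 and 0.147 in the AV canal. hapln1a, a link protein that binds hyaluronan to proteoglycans, had 9, 60 and 0 reads in the ventricle and 123, 143 and 100 in the AV canal. The second link protein row, HAPLN1, had more reads and was higher in the ventricle in 2 of 3 hearts, with levels of 2.499, 0.236 and 8.15 in the ventricle and 1.35, 1.21 and 1.83 in the AV canal. WNT9B, a Wnt ligand, was the 1 gene of the list higher in the ventricle in 3 of 3 hearts, at 0.347, 1.23 and 1.60 against 0.117, 0.491 and 0.0857.

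The cushion matrix genes were thinly read and did not agree between hearts. has2, which makes the hyaluronan of the cushions, had 0, 10 and 24 reads in the ventricle and 101, 24 and 0 in the AV canal, so heart 3 went against the other two. anxa5b had 0, 17 and 0 reads in the ventricle and 175, 11 and 16 in the AV canal. All 146 reads of spp1, a secreted matrix glycoprotein, lay in the AV canal of heart 1, in 4 of its 8 sections. It had 0 reads in the other 5 libraries and was not among the genes tested. The cell adhesion gene ALCAM was read more deeply, at 8.49, 7.07 and 7.66 in the ventricle and 8.20, 15.1 and 11.0 in the AV canal (log2 fold change -0.77, SE 0.75).

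Signalling pathways showed no called member. Of 12 BMP genes tested 0 passed, with a median of -0.63, or -0.555 without bmp4. ID1, a target of BMP signals, gave 3.27, 2.06 and 7.79 in the ventricle and 4.23, 9.37 and 3.57 in the AV canal, and the ID-family gene id2b gave 3.42, 2.88 and 2.72 against 2.69, 2.49 and 3.67. Of 20 Wnt genes 0 passed (median -0.31). Beta-catenin (ctnnb1) stood at 3.09, 3.45 and 11.4 in the ventricle and 2.61, 3.70 and 10.3 in the AV canal, and SFRP5, a secreted Wnt inhibitor, at 0.636, 0.709 and 6.50 against 1.04, 3.90 and 3.75. Of 14 Notch genes 0 passed (median 0.29). The receptor NOTCH1 had levels of 0.795, 0.969 and 2.54 in the ventricle and 0.459, 2.49 and 1.01 in the AV canal, and the ligand gene jag2b had 0.368, 0.284 and 2.72 against 0.515, 0 and 2.64.

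Of 21 heart transcription factors tested none passed, and their median was -1.18, beside -0.44 over all genes. Without heart 3 it was -0.04, beside -0.01. By level 3 of the 21 were higher in the ventricle in 3 of 3 hearts, against 7.98% of all genes, and 4 in the AV canal, against 14.1%. The 4 include tbx2b and also TBX2, which met the filter only through the AV canals. Without tbx2b, which helped to place the canal of heart 1, the median of the other 20 was -0.977. hand2, needed for ventricular muscle to form, gave 4.04, 5.03 and 8.55 in the ventricle and 4.92, 4.52 and 3.13 in the AV canal. tbx20, a T-box factor of chamber muscle, was higher in the ventricle in 3 of 3 hearts, at 3.33, 3.26 and 5.08 against 1.70, 2.49 and 1.88, and its windows did not overlap in level, but it did not pass (log2 fold change 0.68, SE 0.82, adjusted p = 0.994). A difference of this size could not pass in this model, however alike the hearts were. NKX2-5 had 184, 33 and 0 reads in the ventricle and 418, 19 and 487 in the AV canal.

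**Figure D4:**
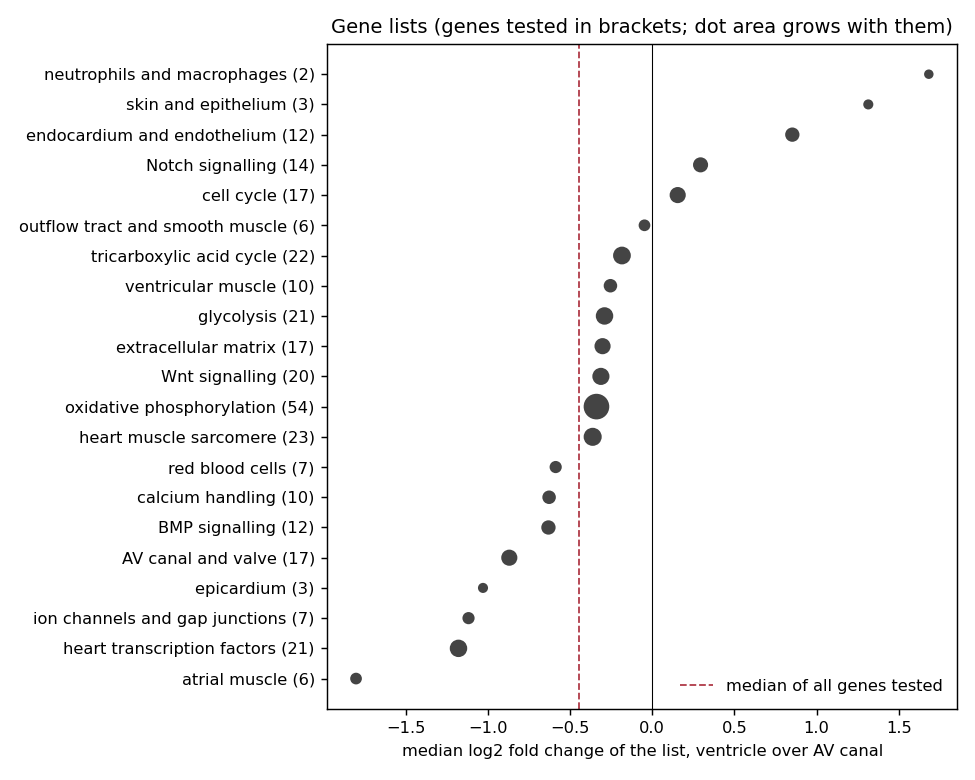
Median log2 fold change (ventricle over AV canal) of the tested genes of 21 lists, with the number of genes in brackets and the median of all genes tested (-0.44) as a dashed line. Atrial muscle lies lowest at -1.80, and the highest dot (1.68) rests on 2 genes. The lists keep the genes that helped to place the windows, no spread is drawn and no list was tested.

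Energy metabolism was read deeply in both windows. Genes of oxidative phosphorylation summed to 308.9, 262.0 and 204.9 in the ventricle and 240.1, 232.0 and 337.4 in the AV canal, higher in the ventricle in hearts 1 and 2 and lower in heart 3. None of 54 tested passed (median -0.34, and 0.24 without heart 3). The ATP synthase subunit gene ATP5F1B gave 24.9, 20.5 and 32.8 in the ventricle and 13.98, 18.01 and 46.4 in the AV canal. Genes of the tricarboxylic acid cycle were higher in the ventricle in sum in 3 of 3 hearts, at 38.4, 37.03 and 52.9 against 27.1, 32.4 and 46.6. This was not particular to them. The sums of the Notch, endocardial and endothelial, neutrophil and macrophage, skin, matrix and cell cycle lists were also higher there in each heart. Of 22 tested 0 passed, 5 were higher in the ventricle in 3 of 3 hearts, against 7.98% of all genes, and 1 in the AV canal, against 14.1%. The median of the list, on the scale of the test, was -0.18, on the AV canal side of 0. On that scale the sum of the list was lower in the ventricle of heart 3. The most read was isocitrate dehydrogenase IDH2, at 3.97, 8.60 and 13.5 in the ventricle and 3.23, 4.75 and 4.85 in the AV canal. The malate dehydrogenase MDH2 was higher in the AV canal in 2 of 3 hearts, at 2.64, 2.41 and 1.02 in the ventricle and 1.64, 3.18 and 4.36 in the AV canal. Glycolytic genes summed to 124.4, 63.7 and 105.6 in the ventricle and 95.7, 73 and 172.4 in the AV canal, with 0 of 21 past the test. Of these 21, 5 were higher in the ventricle in 3 of 3 hearts, against 7.98% of all genes, and 2 in the AV canal, against 14.1%. For both lists the 7.98% is a low base, since it counts the 50.1% of tested genes at 0 in the ventricle of heart 3. GAPDH gave 29.4, 15.2 and 24.3 in the ventricle and 23.9, 27.1 and 59.7 in the AV canal.

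Other cell types were carried unevenly between windows and hearts. Endocardial and endothelial genes summed to 12.5, 13.5 and 62.2 in the ventricle and 10.8, 12.8 and 11.7 in the AV canal, so the ventricle of heart 3 stood apart, and none of 12 passed (median 0.85). The endothelial cadherin cdh5 was 3.03, 5.53 and 21.7 in the ventricle and 2.98, 4.16 and 4.29 in the AV canal. Red blood cell genes summed to 39.9, 3.17 and 19.95 in the ventricle and 3.91, 138.6 and 5.82 in the AV canal, with the ventricle higher in hearts 1 and 3 and the canal in heart 2. The globin hbae3 had 2613, 28 and 0 reads in the ventricle and 6, 1563 and 1 in the AV canal, and 2502 of the 2613 lay in 1 section. Of other defining red cell genes, alas2 had 5, 0 and 0 reads in the ventricle and 0, 20 and 0 in the AV canal, and slc4a1a had 13, 0 and 0 in the ventricle and none in the AV canal. Among other rows of the list, RHAG was higher in the ventricle of each heart, at 3.45, 1.68 and 10.2 against 1.47, 0.360 and 1.11. SPTB was higher there in heart 3 only, at 1.77, 0.827 and 4.59 against 2.27, 2.06 and 2.96. Neutrophil and macrophage genes stayed at 1.65, 1.91 and 0.757 in the ventricle and 0.703, 1.60 and 0.269 in the AV canal, but their members went different ways. MPEG1 had 174, 42 and 6 reads in the ventricle and 39, 0 and 8 in the AV canal. The neutrophil gene lyz, not among the genes tested, had 6, 0 and 0 against 21, 49 and 14. LCP1 was at 0 in all 6 libraries, as were NFATC1 of the endocardium, TBX18 of the epicardium and the keratin gene cyt1. Skin and epithelial genes summed to 12.3, 12.2 and 26.1 in the ventricle and 9.84, 11.9 and 10.9 in the AV canal, and epicardial genes to 2.54, 3.52 and 0.401 against 3.07, 4.98 and 3.64. The part of these cells in the differences above was not tested.

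Matrix and cell division genes gave no call either. Of 17 matrix genes tested 0 passed (median -0.30). The basement membrane collagen COL4A1 was higher in the ventricle in 3 of 3 hearts, at 2.07, 3.17 and 3.52 against 1.18, 1.80 and 1.69, and its windows did not overlap, though the difference did not pass (log2 fold change 0.64, SE 0.89). As for tbx20, a difference of this size could not pass in this model. Fibronectin (FN1) had 48, 73 and 107 reads in the ventricle and 433, 107 and 163 in the AV canal, a level of 0.347, 1.73 and 4.77 against 2.21, 3.50 and 0.998, with heart 3 again on the other side. The smooth muscle gene acta2 gave 2.94, 1.13 and 0.312 in the ventricle and 0.530, 0.590 and 3.92 in the AV canal. Of 17 cell cycle genes none passed (median 0.15), and PCNA, the sliding clamp of DNA replication, stood at 5.84, 6.21 and 19.7 in the ventricle and 6.18, 2.75 and 2.35 in the AV canal.

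The 7 genes called higher in the ventricle only once the border was moved to the first section with myh6 were RHAG, arpc1a, PPP3R1, PCCA, SEMA3C, FAM171A1 and wnt11r, named after their values were seen. With that border RHAG, a membrane protein of red blood cells, had 734, 82 and 411 reads in the ventricle and 31, 0 and 0 in the AV canal (log2 fold change 5.48, SE 0.86, adjusted p = 1.1e-04, n = 3, quasi-likelihood model). arpc1a, a subunit of the actin-branching Arp2/3 complex, had 454, 147 and 424 reads in the ventricle and 18, 1 and 0 in the AV canal (adjusted p = 1.2e-04). SEMA3C, wnt11r and FAM171A1 had 0 reads in each AV canal, so they met the filter of 3 libraries only through the ventricles and had to differ. SEMA3C, a secreted semaphorin, had 153, 41 and 192 reads in the ventricle, and wnt11r, a Wnt ligand of heart muscle, had 181, 29 and 168. In the windows of the main comparison RHAG had levels of 3.45, 1.68 and 10.2 in the ventricle and 1.47, 0.360 and 1.11 in the AV canal, without overlap, and did not pass (adjusted p = 0.994). SEMA3C and FAM171A1 were also higher in the ventricle of each heart by level in those windows, but the others were not. PPP3R1 had 139, 42 and 0 reads in the ventricle and 461, 7 and 535 in the AV canal, whose level was higher in hearts 1 and 3. arpc1a (173, 147 and 128 reads against 299, 1 and 296) and PCCA (46, 55 and 187 against 113, 0 and 209) were higher in the AV canal in heart 1. wnt11r (147, 29 and 5 against 34, 0 and 163) was so in heart 3.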

How the data were processed

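Per the labels and the study's methods, RNA of single 10 µm cryosections was made into CEL-seq libraries and mapped to Zv9; BWA 0.6.2 is among the tools in the submitters' processing notes. The authors deposited whole-number read counts per gene and section, not normalized. Each table has 96 columns; those beyond the labelled tissue (56, 48 and 67 in hearts 1, 2 and 3) were ignored. Sections 17 to 24 of heart 1 were put back in order as the labels ask. Spike-in rows entered no total and no test.

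Windows of heart 1 follow the study, with the overlap given to the AV canal; those of hearts 2 and 3 come from a straight line through the positions of vmhc and myh6. The test on the summed counts was a quasi-likelihood negative binomial model written in R 4.3.3, with the heart as a block, trimmed-mean scaling factors, a common dispersion of 0.41, variances squeezed by limma 3.58.1 and Benjamini-Hochberg adjustment. The p and SE of a gene were never allowed below those given by the common dispersion, so close agreement between hearts could not make a gene pass. Genes needed 10 reads in a library of median size in at least 3 libraries and 15 in total. The planned edgeR fit was not run, since the unit check could not parse the tables; their values were seen to be whole-number counts. The model was run on simulated counts drawn with a single dispersion for all genes. These do not copy reads gathered in single sections, so they cannot show how the test behaves for such genes. The 2 windows of a heart come from 1 animal, and the pairing rests on that.

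Of 16023 gene IDs, 12905 have a symbol; symbols in capitals are human matches. The vmhc row was picked by its profile in the study. Members, lists and tests were chosen with earlier results of these data known. Named genes are, per direction, the 10 smallest p past the threshold with 1 sign in 3 hearts (filled to 5 as values only), the markers, up to 4 most-read members of each list with any past the threshold, and the largest row. Alternatives were other scalings, filters, tools and borders, and each heart left out. One named gene is not reported here.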

Additional observations from a re-analysis of the deposited data

How the results depend on the processing

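The count of genes past the threshold (2 in all) was 2 without a filter (myh6 and, higher in the ventricle, PRUNE1, with TADA3 lost), 2 with at least 10 reads in 3 libraries, 2 without sections under 10000 reads, and 3 with median-of-ratios size factors or with totals that omit the largest row. It was 1 with total gene reads, 1 with the border sections left out, 1 with the border of hearts 2 and 3 moved 1 section into the ventricle, and 7 with it moved 1 section into the AV canal. limma on log2(CPM + 1) gave 5. Without the replicate block it was 16, of which 3 were higher in the ventricle and 13 in the AV canal. Leaving out 1 heart gave between 0 and 4. Without heart 3 the 4 were myh6, which placed the windows, PRUNE1 (370 and 246 reads in the ventricles of hearts 1 and 2, 0 in the AV canals), JUNB (0 in the ventricles, 416 and 74 in the AV canals) and ENSDARG00000055505, the last 3 without a read in heart 3 in either window. With 2 hearts the filter asked for 2 libraries. These last 3 had reads in 1 window only, met that filter through it alone and so had to differ. Of the alternatives chosen after seeing the data, voom gave 1 (ENSDARG00000080337), spike-in scaling 0 and the border at the first section with myh6 gave 9. The cause of these moves was not tested.

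TADA3 passed under 7 of 17 alternatives, with adjusted p from 1.2e-04 to 1.0 and a log2 fold change from -11.54 to -2.03. zdhhc8a turned to -1.05 with the border of hearts 2 and 3 moved 1 section into the ventricle. HSD17B12 passed under 3 alternatives (adjusted p 0.0122 to 0.0488). The median of all genes stayed within 1 SD over hearts (1.099) under all 17, though it was 0.45 with the border at myh6. Among 356 list medians under alternatives, 329 moved by less than their SD over hearts. That SD is wide where hearts disagree, so changes of sign are among the 329. The ventricular muscle median, for example, went from -0.25 to 0.65 without heart 3 (SD 1.201). The planned DESeq2 fit was not run. The shallow ventricle of heart 3 limits what can be seen of thinly read genes.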
